A study of Oryza sativa with 4 samples.

Results

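The H4K5ac peaks at the distal ends of the rice chromosomes are described here. They were the peaks whose midpoint lay in the first 2 Mb of a chromosome, called its low end, or within 2 Mb of the highest peak end found on that chromosome in either list, called its high end. The low ends of chromosomes 4, 9, 10, 11 and 12 were left out by rule, so 19 of 24 ends were kept, 7 low and 12 high. These 19 ends held 4078 of the 28883 peaks found in well-watered leaves and 3741 of the 26147 peaks found in drought-stressed leaves. The rule used position alone. Positions are those of the lists, whose genome build is not given in the sources used here. All remaining peaks of chromosomes 1 to 12 outside the 24 ends, 23986 well-watered and 21681 drought-stressed, were taken as the chromosome interiors.

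The plants were Hanyou73, a hybrid rice cultivar, and leaves were taken during grain filling. The antibody recognised histone H4 acetylated at lysine 5 (H4K5ac), and the treatments were well-watered and drought-stressed, with 2 libraries each. Both libraries of a condition point to the same peak list, so there is 1 list per condition, with no value per replicate. No difference between the lists has a replicate check, no p-value is given, and the depth of the libraries is unknown. The intervals below are 95% counting intervals over peaks. They treat neighbouring peaks as independent and say nothing about variation between plants. Overlap of such intervals does not show that the values are equal. Differences given without an interval of their own were not tested.

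Acetylation of the histone H4 tail is placed by acetyltransferases, removed by deacetylases and read by bromodomain proteins. H4K5ac is commonly found near the starts of transcribed genes. In rice, as in other grasses, genes and meiotic crossovers are concentrated towards the distal parts of the chromosome arms, while the regions around the centromeres are rich in transposable elements. The short arms of chromosomes 4 and 10 are known for extensive heterochromatin, the short arm of chromosome 9 for carrying ribosomal RNA genes, and the short-arm ends of chromosomes 11 and 12 for a shared duplication. No gene was assigned to any peak in the present data.

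H4K5ac peaks were more closely packed at the ends than in the interiors. The well-watered list held 107 peaks per Mb at the ends and 73.8 per Mb in the interiors, a ratio of 1.45 (1.41 to 1.50, exact interval). The drought-stressed list held 98.4 and 66.7 peaks per Mb, a ratio of 1.48 (1.43 to 1.53). The interiors keep the rest of the arms whose low ends were left out. With all 24 ends included, the ratios were 1.36 and 1.37. The ends make up 10.2% of the length of the 12 chromosomes and held 14.2% of their well-watered and 14.4% of their drought-stressed peaks. Peaks covered 6.71% of the sequence at the ends in the well-watered list, beside 4.49% in the interiors. The drought-stressed covered shares were 5.72% and 3.80%. The median gap between neighbouring well-watered peaks was 5609 bp at the ends and 6940 bp in the interiors. Under drought the gaps were 6054 and 7716 bp.

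Over their whole 2 Mb, all 19 ends were denser than the interior of their own chromosome in both lists. The outermost Mb of the high end of chromosome 11, taken alone, was sparser than that interior. The exact Poisson interval of the end lay above the density of its interior at 19 of 19 ends in the well-watered list and at 18 of 19 in the drought-stressed list, the exception being the high end of chromosome 11. The largest well-watered ratio of an end to its interior, 1.85, was found at the high end of chromosome 12, whose interior had the fewest peaks, 52.95 per Mb. The smallest, 1.16, was found at the high end of chromosome 1, whose interior held 91.3 peaks per Mb. The ends themselves were close, with 98 and 106 well-watered peaks per Mb.

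**Figure D1:**
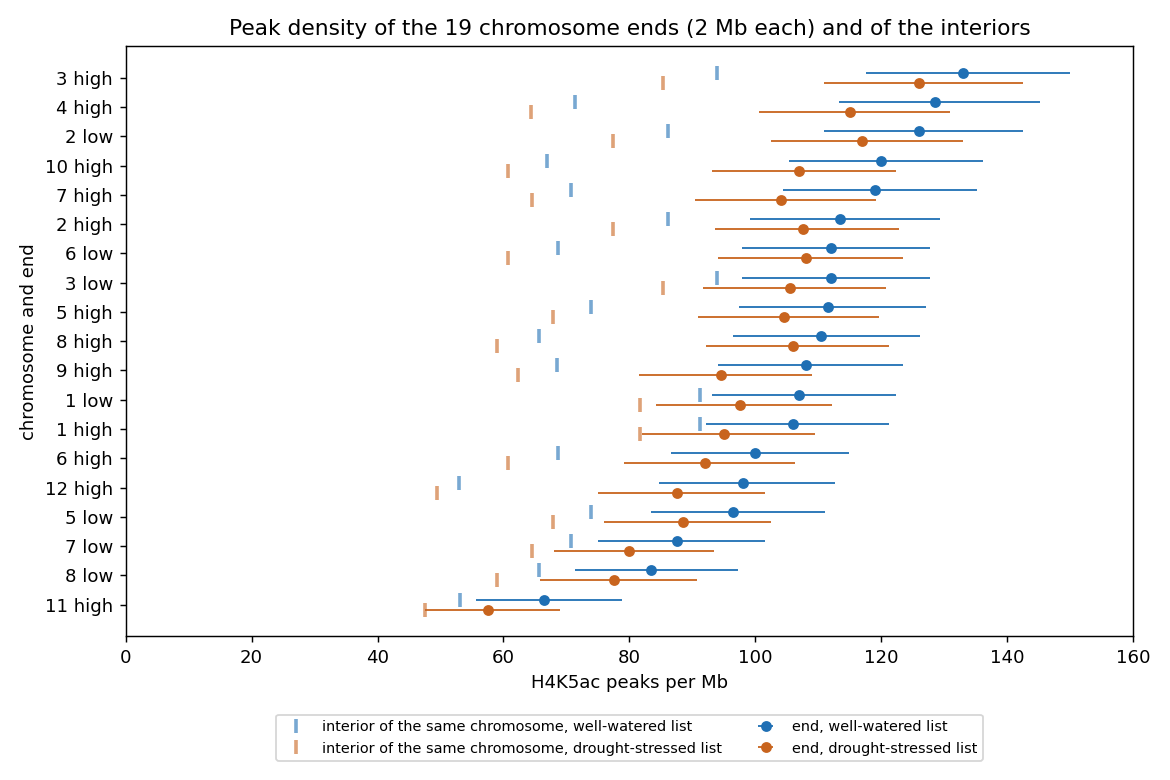
H4K5ac peaks per Mb (horizontal axis) at each of the 19 ends, ordered by well-watered density, with well-watered values in blue and drought-stressed values in orange. Points are ends with exact Poisson 95% intervals, and short vertical marks give the interior of the same chromosome. Each point lies to the right of the mark of its own list, from 66.5 well-watered peaks per Mb at the high end of chromosome 11 to 133 at the high end of chromosome 3.

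The ends also differed among themselves. The median end held 110.5 well-watered peaks per Mb and 104 drought-stressed peaks per Mb. The densest were the high end of chromosome 3, with 133 well-watered peaks per Mb (117 to 150) and 126 drought-stressed peaks per Mb (111 to 143), the high end of chromosome 4, with 128.5 and 115, and the low end of chromosome 2, with 126 and 117. The sparsest were the high end of chromosome 11, with 66.5 well-watered peaks per Mb (55.7 to 78.8) and 57.5 drought-stressed peaks per Mb (47.5 to 69.0), the low end of chromosome 8, with 83.5 and 77.5, and the low end of chromosome 7, with 87.5 and 80. The intervals of the 3 densest and the 3 sparsest ends did not overlap in the well-watered list. The intervals of neighbours in the order overlapped. The same 3 ends were densest and the same 3 were sparsest in both lists.

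Low and high ends covered much the same range. The 7 low ends ran from 83.5 to 126 well-watered peaks per Mb, with a median of 107, and the 12 high ends from 66.5 to 133, with a median of 111. On the 7 chromosomes with both ends kept, the high end was the denser on chromosomes 3, 5, 7 and 8 and the low end on chromosomes 1, 2 and 6. The widest gap between the ends of a chromosome was on chromosome 7, with 87.5 well-watered peaks per Mb at the low end and 119 at the high end.

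The 5 low ends that the rule leaves out fell into 2 kinds. Those of chromosomes 4, 9 and 10 held 113, 101 and 108 well-watered peaks in 2 Mb, and each was sparser than its own interior (0.791, 0.738 and 0.807 of its density). Those of chromosomes 11 and 12 held 198 and 210 well-watered peaks, which is within the range of the 19 ends kept, at 1.86 and 1.98 times the density of their interiors. The drought-stressed counts were 97, 85 and 97 for the first group and 175 and 187 for the second.

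The high density was not limited to the outer 2 Mb. Inward from the same 19 ends, the well-watered density was 109 peaks per Mb in the outermost Mb, 105 from 1 to 2 Mb, and 98.7, 102, 98.2 and 93.7 in the next 4 bands of 1 Mb. It was 82.1 from 6 to 7 Mb and 70.6 from 9 to 10 Mb. Drought-stressed densities declined from 101 in the outermost Mb to 63.8 from 9 to 10 Mb. The limit of 2 Mb therefore cuts a slow decline, and the peaks on either side of it were close in number and width. There were 199 well-watered peaks 1.9 to 2 Mb from an end, with a median width of 594 bp, and 213 at 2 to 2.1 Mb, with a median of 575 bp. Among 155 interior windows of 2 Mb, the median held 134 well-watered peaks against 221 at the median end. In 20 of these windows (12.9%) there were as many well-watered peaks as at the median end or more.

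**Figure D2:**
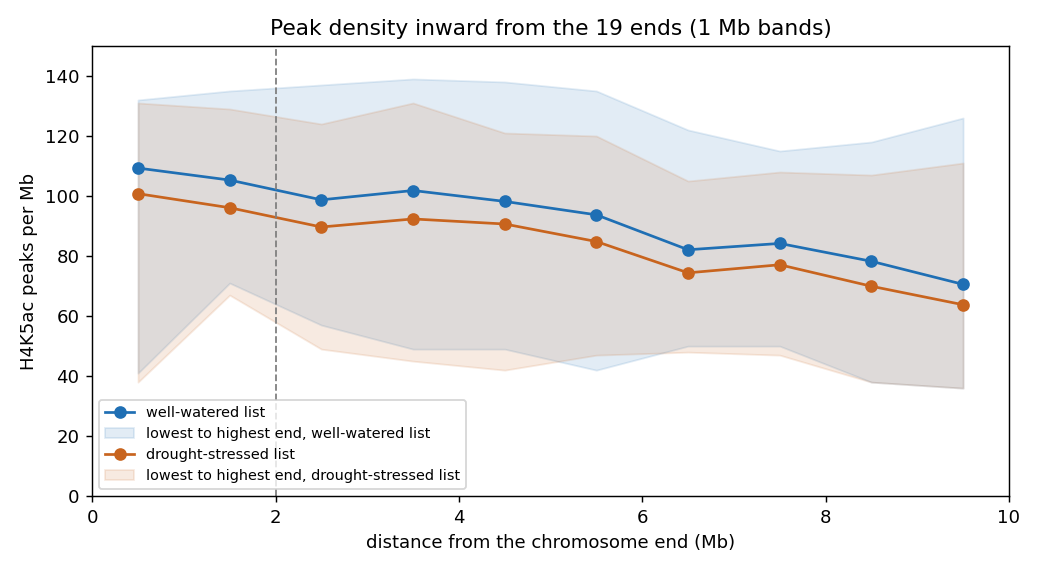
H4K5ac peaks per Mb (vertical axis) in 1 Mb bands by distance from the chromosome end in Mb (horizontal axis), over the 19 ends kept. Lines are pooled values of each list, shaded areas run from the lowest to the highest single end, and the dashed line marks 2 Mb. The well-watered line goes from 109 peaks per Mb in the first band to 70.6 in the last. The bands on either side of 2 Mb stand at 105 and 98.7.

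Peaks began close to the chromosome tips. At the low ends the outermost well-watered peak lay at bases 69 to 279 on chromosome 2, 1042 to 1330 on chromosome 8, 1482 to 1695 on chromosome 6 and 2890 to 3699 on chromosome 1. It lay at bases 9079 to 9259 on chromosome 3, 11772 to 13003 on chromosome 7 and 37197 to 38108 on chromosome 5. Each of these 7 peaks had a drought-stressed counterpart, meaning a peak that overlaps it by at least 1 bp, which was the outermost peak of that list too. On chromosome 2 the counterpart lay at 71 to 272. The 7 well-watered peaks measured from 181 bp on chromosome 3 to 1232 bp on chromosome 7.

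At the high ends the last peak defines the end, so its distance is 0 in one of the lists by construction. In 10 of the 12 the outermost peaks of the lists overlapped, with outer edges at most 190 bp apart, as on chromosome 1, where they lay at 43249031 to 43249494 and 43249010 to 43249684. The exceptions were chromosomes 5 and 6. On chromosome 5 the last drought-stressed peak, at 29955921 to 29956121, had a score of 62 and no well-watered counterpart, and the last well-watered peak ended 19615 bp before it. On chromosome 6 the last well-watered peak, at 31217660 to 31217881, had a score of 32 and no drought-stressed counterpart, and the last drought-stressed peak ended 4892 bp before it. Scores are values that the authors gave each peak. Their scale is not stated, so they are used only to rank peaks within a list.

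The widths of end peaks were close to those of the interiors in their middle. In both lists the ends held a smaller share of narrow peaks and a larger share of broad ones. The intervals of ends and interiors lay apart for well-watered narrow peaks and for drought-stressed broad peaks. The median width at the ends was 613 bp in the well-watered list (603 to 623 bp) and 567 bp in the drought-stressed list (557 to 576 bp). The interiors had medians of 611 bp (606 to 616 bp) and 571 bp (566 to 575 bp). Peaks of at most 200 bp, about the length of a nucleosome with its linker, made up 7.63% of well-watered peaks at the ends (6.85% to 8.48%) and 10.2% in the interiors (9.78% to 10.5%). Under drought these shares were 8.07% (7.24% to 8.99%) and 9.22% (8.84% to 9.61%), with overlapping intervals. Broad peaks of at least 1000 bp made up 10.4% of well-watered peaks at the ends (9.50% to 11.4%) and 9.37% in the interiors (9.01% to 9.74%), with overlapping intervals. Under drought they made up 7.14% (6.36% to 8.01%) and 5.85% (5.54% to 6.17%), and these intervals did not overlap. From 2 to 4 Mb inward, peaks of at most 200 bp made up 7.48% (6.69% to 8.36%) of well-watered and 7.23% (6.41% to 8.14%) of drought-stressed peaks. These intervals overlapped those of the ends. Broad peaks made up 9.13% (8.26% to 10.1%) and 5.49% (4.78% to 6.30%) there. Only the drought-stressed interval of broad peaks lay apart from that of the ends.

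The median width of a single end lay between 588 and 645 bp in the well-watered list at 18 of the 19 ends. The exception was the high end of chromosome 11, at 458 bp, beside 578.5 bp in the interior of that chromosome. Its drought-stressed median was 431 bp. It also had the lowest median score of the 19 ends in both lists, 194 beside a median end of 418 in the well-watered list, and 165 beside 350 in the drought-stressed list. Median widths were above those of the own interior at 9 of 19 ends in the well-watered list and at 6 of 19 in the drought-stressed list.

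The widest well-watered peaks at the ends were Chr11:27258101-27260518 (2418 bp), Chr5:28131447-28133802 (2356 bp) and Chr7:29116206-29118550 (2345 bp). The widest drought-stressed peaks were Chr11:27251630-27253984 (2355 bp), Chr3:35220266-35222607 (2342 bp) and Chr1:41982117-41984374 (2258 bp). The leading peaks of both lists lay at the high end of chromosome 11, the end with the lowest median width. All 6 lay at high ends and had a counterpart in the other list.

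Scores at the ends were near the middle of each list, and few of the very highest were found there. At the ends, 51.3% of well-watered peaks (49.8% to 52.9%) and 50.1% of drought-stressed peaks (48.5% to 51.7%) scored above the median of their list. Only 19 end peaks (0.466%, 0.298% to 0.727%) were in the top 1% of the well-watered scores, beside 253 interior peaks (1.05%, 0.933% to 1.19%). Under drought these were 17 (0.454%, 0.284% to 0.727%) and 232 (1.07%, 0.942% to 1.22%). The low share was not particular to the ends: from 2 to 4 Mb inward it was 0.446% and 0.491%, and in the 79 interior windows with at least 133 well-watered peaks 0.560% and 0.630%. All of these top-scored peaks had a counterpart in the other list.

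High-scored end peaks came mainly from a pair of ends. The low end of chromosome 6 held 6 and the high end of chromosome 5 held 5 of the 19 well-watered peaks in the top 1%, and the same numbers of the 17 drought-stressed ones. The 5 highest-scored end peaks were the same regions in both lists. The first, at Chr6:56034-56629, scored 39505 and ranked 9 in the well-watered list, and its counterpart scored 34281 and ranked 5. The second, at Chr6:32202-32488, scored 33525 and ranked 11, and its counterpart scored 27606 and ranked 9. The next, at Chr5:29804779-29805020, scored 22147 and ranked 22, as did its counterpart, with a score of 18951. The others were at Chr5:29907724-29907947, with well-watered and drought-stressed ranks of 40 and 41, and at Chr6:84123-84692, with ranks of 42 and 38. All 5 lay 32.3 to 151 kb from the tip, and 3 of the well-watered peaks were 224 to 287 bp wide.

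Within the ends, the outermost stretch differed from the rest in median width and score. This split was chosen after the values were seen. Well-watered peaks in the outer 0.5 Mb had a median width of 644 bp (627 to 661 bp), beside 605 bp (596 to 613 bp) from 0.5 to 2 Mb. Their median scores were 496.5 (440 to 540) and 384 (346 to 410). Under drought the median widths were 603 bp (587 to 619 bp) and 553.5 bp (545 to 565 bp), and the median scores 395 (366 to 440) and 328.5 (309 to 348). The outer stretch had the larger median width at 16 of 19 ends in the well-watered list and at 17 of 19 in the drought-stressed list. It had the larger median score at 14 and 13 ends. It was the denser at 11 ends and the sparser at 7 in the well-watered list, and the denser at 13 and the sparser at 6 in the drought-stressed list.

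In bands of 0.25 Mb the median well-watered score was 519 in the outermost band, 471 and 453 in the next ones and 348 in the innermost, from 1.75 to 2 Mb. The median width was 648 bp in the outermost band and 607 bp in the innermost. The lowest median width, 582 bp, was found from 1.5 to 1.75 Mb. The outermost band was also the densest, with 119 well-watered peaks per Mb against 99.8 to 113 in the other 7.

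Along the ends, peaks were spread with few long interruptions. Of 380 windows of 100 kb, the median held 11 well-watered peaks, with quartiles of 8 and 14, and 10 drought-stressed ones, with quartiles of 7 and 13. No peak fell in 4 windows of the well-watered list and 3 of the drought-stressed list, all at the low ends of chromosomes 7 and 8 except 1 well-watered window at the high end of chromosome 11. The longest stretch without a well-watered peak was 186168 bp at the low end of chromosome 7, from 1316613 to 1502780. The longest without a drought-stressed peak was 219697 bp at the low end of chromosome 8, from 1305653 to 1525349. The fullest well-watered window, with 24 peaks, was Chr11:27306802-27406801. It held 16 drought-stressed peaks. The fullest drought-stressed window, with 23 peaks against 22 well-watered ones, was Chr3:35805552-35905551.

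The high end of chromosome 11, the sparsest of the 19, was unevenly filled. It held 29 well-watered peaks in the outer 0.5 Mb, 12 from 0.5 to 1 Mb, 28 from 1 to 1.5 Mb and 64 from 1.5 to 2 Mb. The drought-stressed counts were 28, 10, 24 and 53. The 64 inner peaks had a median width of 344 bp and a median score of 142, whereas the 29 outer peaks had a median width of 633 bp and a median score of 443. The densest end, the high end of chromosome 3, held 54, 77, 70 and 65 well-watered peaks in the same 4 stretches.

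**Figure D3:**
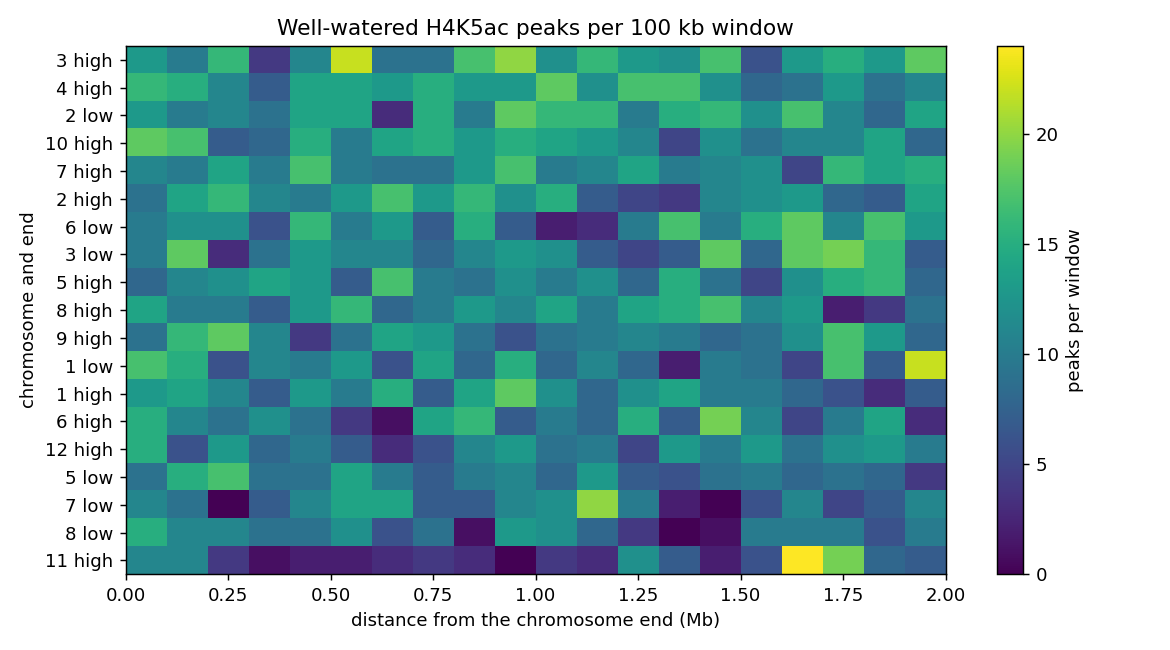
Number of well-watered H4K5ac peaks (colour scale) in each 100 kb window by distance from the chromosome end in Mb (horizontal axis) at the 19 ends (vertical axis), ordered from the densest to the sparsest. The darkest windows, with no well-watered peak, are at the low ends of chromosomes 7 and 8 and the high end of chromosome 11, and the brightest, with 24 peaks, is at the high end of chromosome 11.

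The comparison of water regimes asked which acetylated regions at the ends were listed under both and which under one. Most were listed under both. At the ends, 543 of 4078 well-watered peaks (13.3%, 12.3% to 14.4%) had no drought-stressed counterpart, beside 15.1% of all well-watered peaks and 15.4% of interior ones (14.9% to 15.9%). Of the drought-stressed peaks at the ends, 155 of 3741 (4.14%, 3.55% to 4.83%) had no well-watered counterpart, beside 4.89% of all and 5.03% of interior ones (4.74% to 5.33%). Both shares were thus lower at the ends. The well-watered intervals of ends and interiors did not overlap. The drought-stressed ones did, and no interval of their difference was computed. From 2 to 4 Mb inward the shares were 13.7% (12.7% to 14.9%) and 3.64% (3.07% to 4.32%), with intervals that overlapped those of the ends. The number of peaks under drought was 0.917 of the well-watered number at the ends and 0.904 in the interiors, and the covered length was 0.853 and 0.846 of the well-watered length. Fewer peaks, less covered length and more well-watered-only than drought-stressed-only peaks were found at each of the 19 ends. The shares depended on the length of the lists and on the overlap asked for. With lists cut to equal numbers by score, 8.03% of well-watered and 6.58% of drought-stressed end peaks were in one list only. With reciprocal overlap of 50% the shares were 19.1% and 11.8%, with a counterpart allowed within 1 kb 10.2% and 2.46%, and for peaks above the median score of their list 0% and 0.0533%.

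The lower share of well-watered-only peaks at the ends went with their fewer narrow peaks. End and interior peaks were split together into 5 classes of equal size by width. In the narrowest class (139 to 293 bp), 51.8% of end peaks (48.1% to 55.5%) and 53.7% of interior peaks (52.3% to 55.1%) were well-watered only. That class held 17% of end peaks and 20.5% of interior peaks. In the next class (294 to 529 bp) the shares were 17.7% and 17.1%, and in the widest 0.512% and 0.763%. Within each width class the intervals of ends and interiors overlapped. In the lowest of 5 such classes by score (20 to 85), 58.3% of end peaks (54.7% to 61.7%) and 61.1% of interior peaks (59.7% to 62.5%) were well-watered only. No end peak with a well-watered score above 565 lacked a counterpart. Whether widths or scores account for the lower share at the ends was not tested.

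Peaks listed under one regime were short at the ends as elsewhere. Well-watered-only end peaks had a median width of 233 bp, beside 653 bp for shared ones, and a median score of 55 beside 522. Drought-stressed-only end peaks had a median width of 182 bp, beside 578 bp, and a median score of 45 beside 364. Of these drought-stressed-only peaks, 63 of 155 (40.6%, 33.2% to 48.5%) lay within 1 kb of a well-watered peak, against 349 of 1090 in the interiors (32.0%, 29.3% to 34.8%). These intervals overlapped. The well-watered-only peaks lay within 1 kb of a drought-stressed peak in 126 of 543 cases (23.2%, 19.8% to 26.9%), against 23.9% in the interiors.

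The 5 highest-scored well-watered-only peaks at the ends scored 211 to 330. They were Chr6:31114756-31115125 (score 330), Chr4:35442255-35442708 (score 264), Chr7:1139292-1139655 (score 261), Chr2:34500960-34501126 (score 219) and Chr12:27144349-27144738 (score 211). The nearest drought-stressed peak was 159 bp away from the one on chromosome 2 and 1290 to 9598 bp away from the others. Among drought-stressed-only peaks, Chr6:19391-19733 stood apart with a score of 683. It was 343 bp wide, and it lay on the low end that also held the highest-scored end peaks. The next were Chr8:1176766-1176943 (score 150), Chr3:35708338-35708521 (score 142), Chr1:1275739-1275898 (score 128) and Chr11:27516569-27516737 (score 128). These 4 were 160 to 184 bp wide. The nearest well-watered peak was 12468 bp away from the peak on chromosome 6 and 159 bp away from the one on chromosome 11. For the others it was 6681 to 9853 bp away.

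The share of peaks in one list only at most ends did not differ from the pooled value beyond counting error. It ran from 8.98% (15 of 167) at the low end of chromosome 8 to 20.3% (27 of 133, 14.3% to 27.9%) at the high end of chromosome 11 in the well-watered list. The Wilson interval of a single end held the pooled 13.3% at 18 of 19 ends, chromosome 11 being the exception. Under drought the share ran from 1.71% (4 of 234) at the low end of chromosome 2 to 8.13% (13 of 160, 4.81% to 13.4%) at the low end of chromosome 7. In that list the interval held the pooled 4.14% at 17 ends and lay above it at the low end of chromosome 7 and the high end of chromosome 11. The exceptions were picked out of 19 ends, and among 19 such intervals a miss can arise from counting error alone. At 13 of 19 ends, well-watered-only peaks made up a smaller share than in the interior of the same chromosome. For drought-stressed-only peaks this held at 14 of 19 ends.

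The outer 0.5 Mb held a lower share of well-watered-only peaks than the rest of the ends. In the outer 0.5 Mb, 108 of 1046 well-watered peaks (10.3%, 8.62% to 12.3%) had no drought-stressed counterpart, beside 435 of 3032 (14.3%, 13.1% to 15.6%) from 0.5 to 2 Mb, a difference of -4.02 percentage points (-6.16 to -1.70). The share was the lower in the outer stretch at 16 of 19 ends. Under drought it was also lower, at 27 of 967 (2.79%, 1.93% to 4.03%) beside 128 of 2774 (4.61%, 3.89% to 5.46%), and so at 14 of 19 ends. These drought-stressed intervals overlapped, and no interval of their difference was computed. In bands of 0.25 Mb the drought-stressed share was 3.17% in the outermost band and lowest, 2.33%, in the next. Scores moved with this difference: 16.7% of the outer well-watered peaks and 21.0% of the others were in the lowest of 5 classes of end scores (20 to 91). Within that class, 51.4% of outer peaks (44.1% to 58.7%) and 57.7% of the others (53.8% to 61.5%) were well-watered only, with overlapping intervals. Whether the scores account for the difference was not tested.

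**Figure D4:**
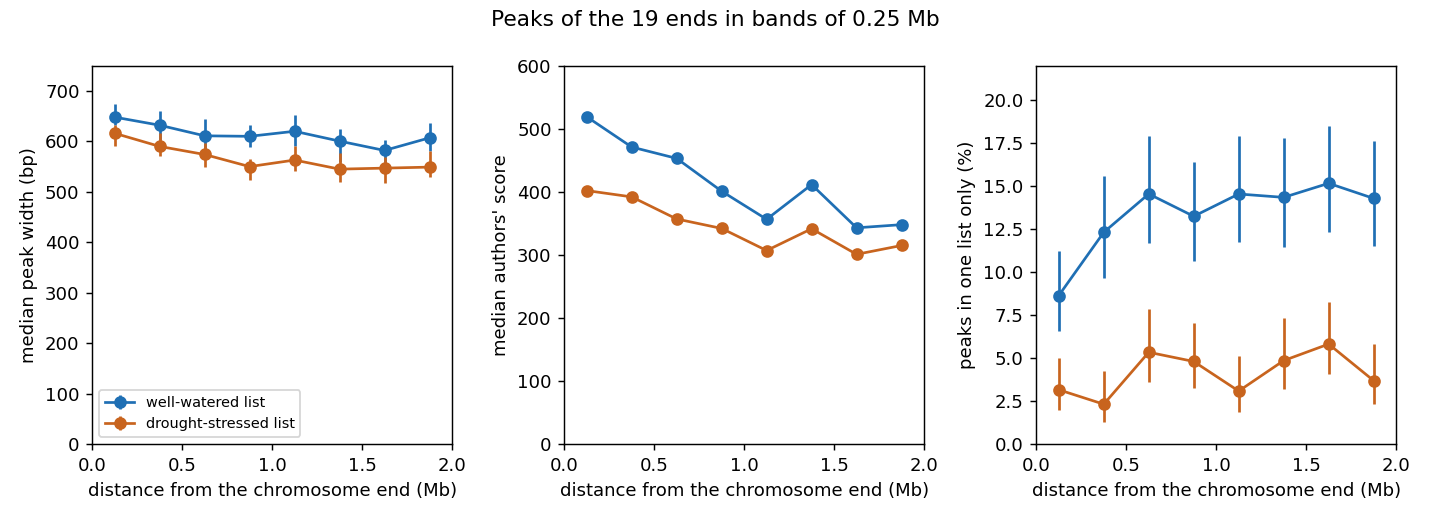
Median peak width in bp, median authors' score and percentage of peaks found in one list only (vertical axes) in 0.25 Mb bands by distance from the chromosome end in Mb (horizontal axes), pooled over the 19 ends, for the well-watered (blue) and drought-stressed (orange) lists. Bars are 95% order-statistic intervals for width and Wilson 95% intervals for the percentages, and scores carry none. In the outermost band the well-watered median width is 648 bp and 8.64% of well-watered peaks are in that list only, beside 607 bp and 14.3% in the innermost band.

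The second comparison asked whether end regions listed under both regimes had the same extent. Most were narrower in the drought-stressed list, as over all pairs. Peaks that overlapped each other and nothing else formed 3407 pairs at the ends, of which 2598 (76.3%, 74.8% to 77.7%) were narrower in the drought-stressed list, beside 75.1% of all 23718 pairs and 74.9% of interior pairs (74.3% to 75.5%). At the ends 793 pairs were wider, beside 24.2% of all pairs, and 16 were equal. The median change, drought-stressed minus well-watered, was -54 bp at the ends (-58 to -52 bp) and -52 bp in the interiors (-54 to -51 bp), on end medians of 651 and 582 bp. The edge facing the chromosome tip lay a median of 23 bp further in under drought and the inner edge 21 bp. The corresponding interior values were 21 and 19 bp.

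By the mean width of a pair, the share of narrower pairs at the ends was 64.3% in the narrowest of 5 classes (142 to 390.5 bp) and 76.7% to 79.5% in the other 4. In the class from 391 to 566.5 bp it was 79.3% at the ends (76.3% to 82.1%) and 74.5% in the interiors (73.1% to 75.9%). In the remaining classes the intervals of ends and interiors overlapped. The shares of large changes at the ends were close to those over all pairs. A loss of at least 1/3 of the width was found in 282 end pairs (8.28%), beside 8.96% of all pairs, and a gain of at least 1/3 in 98 (2.88%), beside 3.04%.

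The median change was below 0 at each of the 19 ends, from -80.5 to -31 bp. Its interval held the pooled -54 bp at 17 of them. Both exceptions were ends of chromosome 6. At the high end 138 of 164 pairs (84.1%, 77.8% to 88.9%) were narrower, with a median change of -80.5 bp (-92 to -63 bp). At the low end 140 of 194 pairs (72.2%, 65.5% to 78.0%) were narrower, with a median change of -31 bp (-45 to -20 bp). In stretches of 0.5 Mb from the tip inward, the median changes were -90, -79, -81 and -65 bp at the high end. At the low end they were -18, -41.5, -22 and -37 bp, less negative in each stretch. The intervals of the ends were apart in the outermost stretch and overlapped in the other 3, and no interval of a difference was computed. These ends are shown because they had the extreme values. Pairs of the low end had a median well-watered width of 608.5 bp and those of the high end 672.5 bp. Split by mean width into the same 5 classes, the high end had the more negative median in each. In the class from 567 to 683 bp the medians were -26 bp at the low end (-48 to -10 bp, 49 pairs) and -90 bp at the high end (-105 to -64 bp, 40 pairs), and in the other 4 classes the intervals overlapped.

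**Figure D5:**
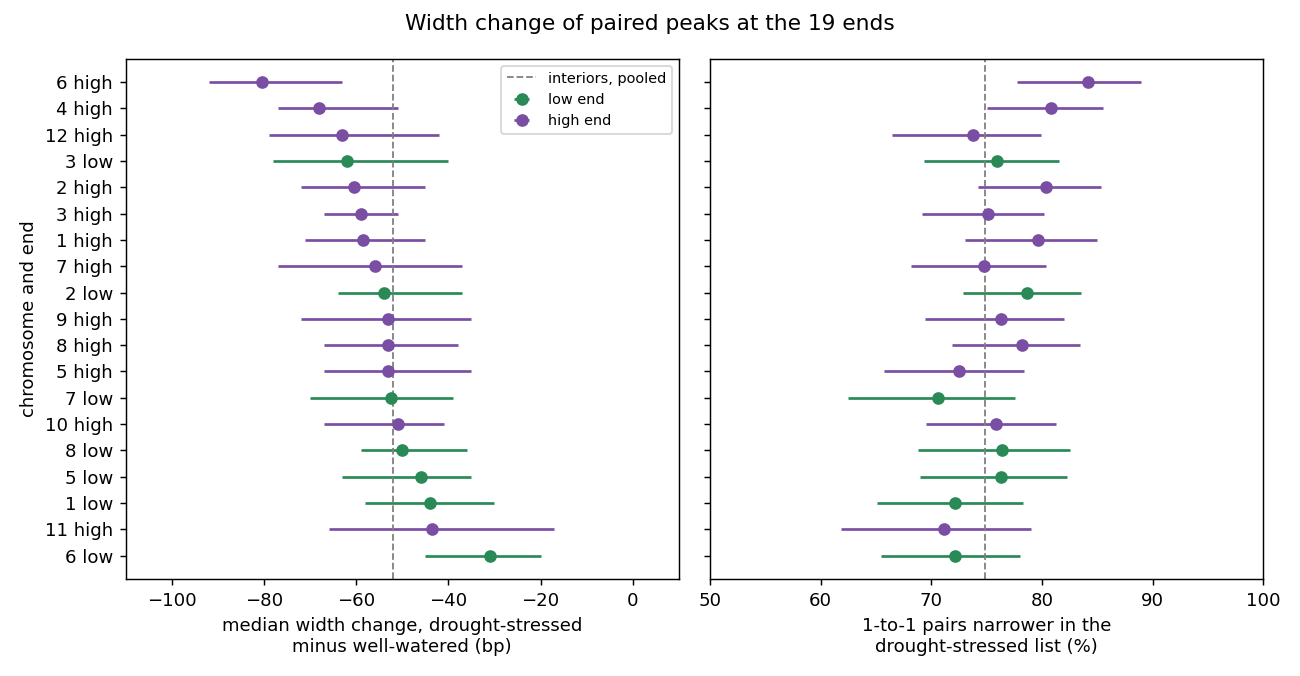
Median width change of paired peaks in bp, drought-stressed minus well-watered (left, horizontal axis), and percentage of pairs narrower in the drought-stressed list (right, horizontal axis) at the 19 ends, with low ends in green and high ends in purple. Bars are order-statistic and Wilson 95% intervals, and dashed lines give the pooled interiors, -52 bp and 74.9%. The high and the low end of chromosome 6 lie at opposite extremes of the left panel, at -80.5 and -31 bp.

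Over all ends the median change was -47 bp at the 7 low ends (-53 to -42 bp, 1218 pairs) and -58 bp at the 12 high ends (-63 to -54 bp, 2189 pairs). This difference of -11 bp (-18.1 to -3.79 bp) was noticed in the data. Without both ends of chromosome 6 it was -5 bp (-13.6 to 1.71 bp). On the 7 chromosomes with both ends kept, the share of narrower pairs was the higher at the high end of chromosomes 1, 2, 6, 7 and 8 and at the low end of chromosomes 3 and 5.

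The pairs with the largest changes at the ends had low scores. The largest loss was at Chr11:27116613-27117924, a well-watered peak of 1312 bp (score 124) paired with a drought-stressed peak of 166 bp (score 51). Next came Chr5:29596009-29597029, whose 1021 bp stood against 198 bp under drought, and Chr3:1994936-1995965, whose 1030 bp stood against 257 bp. The largest gains were at Chr8:241942-242645 (704 bp against 1182 bp under drought), Chr9:21529325-21529821 (497 bp against 973 bp) and Chr2:346005-346186 (182 bp against 633 bp). The scores of these gains were 62 to 134 in either list.

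Peaks divided into several in the other list were about as common at the ends as over the genome. At the ends 75 well-watered peaks (1.84%, 1.47% to 2.30%) lay over 2 or more drought-stressed peaks, beside 1.72% of all, and 28 drought-stressed peaks (0.748%, 0.518% to 1.08%) lay over 2 or more well-watered ones, beside 0.597%. The end peak divided into most was Chr5:1547357-1549539, 2183 bp wide with a score of 353. The 4 drought-stressed peaks inside it were 245, 158, 169 and 299 bp wide, with scores of 104, 40, 56 and 82.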

How the data were processed

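Chromatin immunoprecipitation sequencing was done on 4 leaf libraries, 2 per condition. Per the labels' protocols, chromatin was crosslinked with formaldehyde and sonicated. BWA, SAMtools, MACS2 and deepTools are named, without versions, per the submitters' processing notes. The deposited lists hold, per condition, each peak's position, name and score, the authors' own value, with no scale stated. Not given in the sources used here are the genome build, the calling threshold, any input control and how replicates were combined. A rice gene table in hand extends beyond the last peak by 157 to 4535 kb on all 12 chromosomes, so it was treated as another build, and no gene or sequence is given.

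Positions follow the lists and are counted from 1. The chromosome end is the last peak end, which may lie inside the true end. Overlap meant at least 1 bp with any peak of the other list. Pairs were placed by their well-watered peak. Scripts ran on Python 3.11.15 with scipy 1.17.1, pandas 2.3.3, numpy 2.4.6 and matplotlib 3.10.9. Overlaps were checked with bedtools 2.31.1 and on a copy of the well-watered list with planted changes. Shares carry Wilson intervals, medians order-statistic intervals, densities exact Poisson intervals, density ratios exact binomial intervals, and differences intervals combined from those of their parts, all at 95% and for counting error only. Depth is unknown. Named peaks were the 5 highest-scored end peaks of each list, the 5 highest-scored in one list only, the 3 widest, the outermost of each end, the pairs with the 3 largest losses and gains, and the most divided peak. Named ends were the 3 densest, the 3 sparsest and those with extreme values. The region rule, measures and lists were chosen with earlier results of these data known. Alternatives covered end size, the ends included, membership, score, overlap and interiors.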

Additional observations from a re-analysis of the deposited data

How the results depend on the processing

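Of 74 values recomputed under the alternatives, 57 stayed within the interval of the value reported and 17 left it. No density ratio, share of narrower pairs, width change or later-added difference changed direction. Median widths and shares in one list only have no neutral value, so no direction could be judged for them. With ends of 1 Mb the median widths were 629 bp (well-watered) and 582 bp (drought-stressed), and 12.1% of well-watered end peaks were in that list only. With all 24 ends the density ratios were 1.36 and 1.37. Above the median score, the median widths were 712 and 646 bp, 81.3% of pairs were narrower, and the shares in one list only were 0% of the well-watered end peaks, for which counting error allows up to 0.183%, and 0.0533% of the drought-stressed ones. With equal numbers of peaks taken by score, the well-watered median width was 641 bp, and the shares in one list only were 8.03% and 6.58%. They were 19.1% and 11.8% with reciprocal overlap of 50%, and 10.2% and 2.46% when a peak within 1 kb counted as a counterpart. The contrast between the outer 0.5 Mb and the rest, added later, kept its direction with outer bands of 0.25 and 1 Mb, with 24 ends and without the high end of chromosome 11, at -5.43 to -2.51 percentage points. The difference of -11 bp between high and low ends was -5 bp without chromosome 6, and -10 to -13 bp in the other 3 alternatives run on it. No paired analysis was possible because the 2 replicates of a condition share 1 list, which also means that leaving out a replicate could not be tried. Depth is unknown, which limits statements on low-scored peaks.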

Other observations

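Interior windows of 2 Mb that held at least as many well-watered peaks as the sparsest end, 133, numbered 79 of 155. Their peaks had a median well-watered width of 617 bp (611 to 624 bp). The windows were chosen by their well-watered counts, so shares of peaks in one list only are not compared. Of their 12215 pairs, 75.9% (75.2% to 76.7%) were narrower under drought, and the median change was -57 bp.

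In the 2 Mb next to the same 19 ends, from 2 to 4 Mb inward, the density was 100.3 per Mb for well-watered and 91.03 per Mb for drought-stressed peaks. There 76.04% of 3197 pairs were narrower in the drought-stressed list.

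At the low end of chromosome 7, the 100 kb from 900001 to 1000000 held 11 well-watered and 10 drought-stressed peaks, of which 6 and 5 were in one list only. The 5 is the most drought-stressed-only peaks in any of the 380 end windows. The most well-watered-only peaks, 9 of 24, were in the fullest window, at the high end of chromosome 11.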
